A study of Mus musculus with 4 samples.

Results

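The cytosolic ribosomal protein genes were followed through the 4 RNA-Seq libraries of sorted lung type 2 innate lymphoid cells (ILC2s) of this study. The rule reads gene names and no counts: it takes names of the Rpl and Rps type with a number, together with Rpsa, Rplp0, Rplp1 and Rplp2, leaving out names that carry the pseudogene mark -ps and the ribosomal S6 kinases. This rule found 93 of the 49315 genes in the deposited table, 55 with Rpl names for the large (60S) subunit and 38 with Rps names for the small (40S) subunit. A set of 77 of them, 46 large-subunit and 31 small-subunit genes, holds 1 gene for each protein under the mouse naming. The other 16 are paralogs, retrogene copies and a gene that the name rule picks up although it encodes no ribosomal protein, Rps19bp1, a binding partner of Rps19. In the GENCODE M21 annotation 86 of the 93 are protein coding and 7 are of a pseudogene type. The rule misses some genes whose products also sit in the ribosome, of which Fau and Rack1 are described beside the members.

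The cells came from wild-type mice (WT, C57BL/6) and from mice that lack Hps1 (Hps1-/-), the gene mutated in type 1 Hermansky-Pudlak syndrome, a disease of lysosome-related organelles with lung fibrosis. Mice of each genotype received phosphate-buffered saline (PBS) or bleomycin, a DNA-damaging drug that is used to bring on lung fibrosis, which gave PBS-WT and PBS-HPS1 as the unchallenged groups and BLEO-WT with BLEO-HPS1 as the challenged ones, each sequenced as 1 library. Cells were enriched and sorted as Lineage-Thy1.2+ICOS+T1/ST2+ and kept in medium with interleukin-2 before RNA was taken, so all 4 groups share the sort and the culture. The cells behind the libraries numbered 22405, 38873, 84166 and 128647, in that order. The Hps1 null mutation is present in every cell of the mouse, not in ILC2s alone. How many mice were pooled for a library, and which of the study's bleomycin schedules these mice received, is not given in the sources used here. No group has a replicate, so no condition was tested, and a gene counts here as higher or lower between libraries when it was at least 2-fold apart.

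Ribosomal proteins wrap the ribosomal RNAs of the cytosolic ribosome and are needed in equal numbers, 1 copy of nearly every protein per particle, with the acidic stalk proteins as the exception. Their messenger RNAs are short, abundant and made from single genes spread over the genome. They begin with a run of pyrimidines, the terminal oligopyrimidine tract, through which the kinase mTOR and the RNA-binding protein Larp1 set how much of the message is translated. Lymphocytes that leave the resting state are known to expand their ribosome pool before they divide or secrete cytokines.

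Start regions were searched for pyrimidine runs near the annotated start, which is a wider net than the tract itself. RefSeq start windows of 250 bases before and 50 bases after the start (GRCm38.p6) were matched for 68 of the 93 members and 57 of the set of 77. A run of at least 8 C or T on the coding strand that reaches into the 50 bases on either side of the start was found for 82.4% of the matched members and for 41.4% of all 27025 genes with a window. The letters CCGGAAG, which ETS family factors bind, were found on either strand for 38.2% of the members and for 9.93% of all genes, and TATAAA for 11.8% and 15.7%. The genes of mitochondrial ribosomal proteins, which are made in the cytosol for another ribosome, held the pyrimidine run in 37.7% and CCGGAAG in 37.7% of 69 windows. The start regions below belong to the 3 genes with the lowest and the 3 with the highest ratio of BLEO-HPS1 to BLEO-WT among the 37 with such a run close to the start. They are shown as examples of how the runs look and lie, and having a run is what they were picked for. Those of Rpl5, Rpl4 and Rpsa end before the RefSeq start, so they are not shown to begin the message. For Rpl5 the start of the GENCODE span given below lies upstream of the run, so the annotations differ. Capitals mark the pyrimidine run.

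Rpl5, chr5:107900483-107900524, plus strand: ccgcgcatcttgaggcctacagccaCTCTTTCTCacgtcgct
Rpl4, chr9:64173344-64173390, plus strand: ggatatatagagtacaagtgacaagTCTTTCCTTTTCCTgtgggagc
Rps24, chr14:24490650-24490691, plus strand: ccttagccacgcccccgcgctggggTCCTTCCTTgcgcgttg
Rpsa, chr9:120127686-120127730, plus strand: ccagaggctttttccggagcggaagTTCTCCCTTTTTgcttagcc
Rpl18, chr7:45718047-45718089, plus strand: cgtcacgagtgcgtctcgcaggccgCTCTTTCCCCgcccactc
Rps27, chr3:90213634-90213675, minus strand: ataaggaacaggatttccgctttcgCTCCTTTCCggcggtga

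The libraries held between 72513619 and 87638154 reads counted on genes. Reads were scaled to a common library size, as CPM, with TMM factors that ran from 0.816 to 1.27, and 3 reads, the least taken as detection, correspond to 0.0303 to 0.0475 CPM. Hps1 itself was counted at 38.3 CPM in PBS-WT and 16.6 in PBS-HPS1, then 48.4 in BLEO-WT and 21.3 in BLEO-HPS1, so both libraries labelled Hps1-/- were the lower ones. Of 12 ILC2 markers between 8 and 10 reached 1 CPM, with Gata3, the ILC2 transcription factor, at 25.1 to 39.1 CPM and the cytokine gene Il13 at 0.269 to 1.43 CPM. The 12 markers summed to 558 to 784 CPM. Markers of other lung cells were present in every library. The 6 macrophage markers summed to 7552 to 16304 CPM, and the 5 fibroblast markers to 164 CPM in PBS-WT and 298 in PBS-HPS1, then 538 in BLEO-WT and 2672 in BLEO-HPS1. T cell markers ran from 352 to 752 CPM, B cell markers from 63.7 to 265, neutrophil markers from 324 to 1240, epithelial markers from 273 to 1044, endothelial markers from 379 to 451 and NK markers from 20.2 to 69.3, and no marker was at 0. The part of these cells in the ribosomal protein values was not tested, and fewer cells of a type and less RNA per cell cannot be told apart.

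Ribosomal protein messages took up a larger share of the reads in BLEO-HPS1 than in the other libraries. The 93 genes together held 6.18% of all counted reads in PBS-WT and 5.32% in PBS-HPS1, then 6.80% in BLEO-WT and as much as 10.95% in BLEO-HPS1. The exact 95% interval of the last share ran from 10.94% to 10.96%, and such intervals cover counting error only, since PCR copies of a molecule are counted as separate reads. The share needs no scaling factor, and its order over the libraries was PBS-HPS1, PBS-WT, BLEO-WT, BLEO-HPS1. In PBS-WT 19 of the 100 most counted genes were members, as were 19 in PBS-HPS1, against 18 in BLEO-WT and 38 in BLEO-HPS1.

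**Figure D1:**
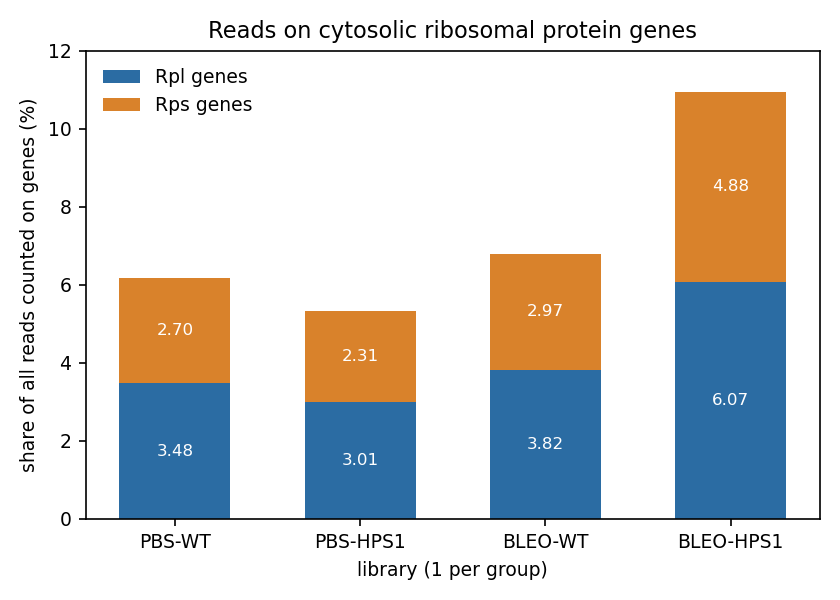
Share of all reads counted on genes, in percent from 0, that fell on Rpl genes (blue) and Rps genes (orange) in each of the 4 libraries, with the share written in each segment. The Rpl share was 3.48%, 3.01%, 3.82% and 6.07% from left to right, and the Rps share 2.70%, 2.31%, 2.97% and 4.88%.

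Both subunits moved alike. Rpl reads outnumbered Rps reads 1.29 to 1 in PBS-WT and 1.30 to 1 in PBS-HPS1, then 1.29 to 1 in BLEO-WT and 1.24 to 1 in BLEO-HPS1. The 269 genes with the -ps mark that the rule left out held at most 0.0279% of the reads of a library, so reads set aside on annotated pseudogene copies were few beside those on the members.

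The shares of mitochondrial genes were taken for comparison. The 78 mitochondrial ribosomal protein genes held 0.204% of the reads in PBS-WT and 0.184% in PBS-HPS1, then 0.212% in BLEO-WT and 0.283% in BLEO-HPS1. Nuclear genes of the respiratory chain and ATP synthase, 79 in number, held 0.678%, 0.586%, 0.776% and 1.09%. Transcripts of the mitochondrial genome, which encodes the remaining respiratory subunits, went the other way after bleomycin, with 1.98%, 1.79%, 0.762% and 0.458%. How far this mitochondrial share belongs with the ribosomal protein share was not tested.

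Each of the 77 genes was well counted, with at least 7346 reads in every library. Their levels ran from 106 to 1975 CPM with a median of 695 in PBS-WT, from 74.2 to 1452 with a median of 509 in PBS-HPS1, from 139 to 2881 with a median of 935 in BLEO-WT, and from 219 to 5983 with a median of 1499 in BLEO-HPS1. The highest mean CPM belonged to Rplp0, the base of the acidic stalk, followed by Rpsa, Rps3, Rps14 and Rps2 of the small subunit. Rplp0, at chr5:115559467-115563727 on the plus strand of GRCm38, was counted at 1975 CPM in PBS-WT and 1452 in PBS-HPS1, then 2881 in BLEO-WT and 5983 in BLEO-HPS1. Rpsa, also known as the laminin receptor, was counted at 1510.0, 1078, 2077 and 4574 CPM in the same order. The lowest mean CPM belonged to Rpl24, Rpl38, Rpl22, Rpl36a and Rpl37. Rpl24, a protein at the bridge between the subunits, was counted at 106, 74.2, 139 and 219 CPM, and Rpl38, known for its part in translating Hox messages, at 177, 123, 214 and 406 CPM.

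Between genes, levels are comparable only per length. Per kilobase of coding sequence the 77 genes spread with an SD of 0.68 on the log2 scale in PBS-WT and 0.69 in PBS-HPS1, then 0.68 in BLEO-WT and 0.80 in BLEO-HPS1. At the top stood Rpl41, whose coding sequence is only 75 bases long, with 9264 CPM per coding kilobase in PBS-WT and 27303 in BLEO-HPS1, and at the bottom Rpl24 with 225 and 464. Rpl41 was named here after its values were seen. Since untranslated bases are left out of this length, very short genes come out too high.

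**Figure D2:**
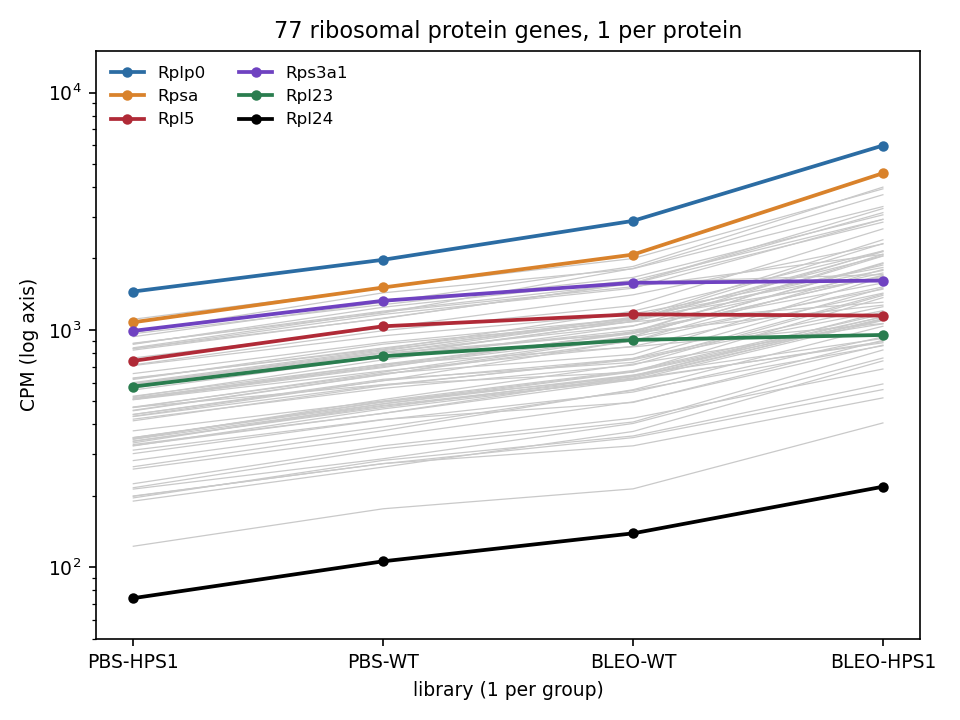
CPM on a log axis of the 77 genes, 1 per protein, with 1 grey line per gene over the 4 libraries and 6 named genes in colour. Lines run nearly in parallel from PBS-HPS1 to BLEO-WT and fan out in BLEO-HPS1, where Rplp0 reached 5983 CPM while Rpl5 stood at 1150, Rps3a1 at 1614 and Rpl23 at 953.

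The order of genes by level was kept nearly whole between libraries, with Spearman's rho over the 77 genes of 0.997 between PBS-WT and PBS-HPS1, 0.988 between PBS-WT and BLEO-WT, 0.926 between BLEO-WT and BLEO-HPS1 and 0.891 between PBS-HPS1 and BLEO-HPS1. These points share the libraries and the gene lengths and are a description. For 76 of the 77 genes the level climbed in the order PBS-HPS1, PBS-WT, BLEO-WT, BLEO-HPS1. The exception was Rpl5, which binds the 5S ribosomal RNA, with 741, 1037, 1164 and 1150 CPM in that order.

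The first comparison asks what the loss of Hps1 goes with in unchallenged mice. Without bleomycin, ribosomal protein genes were slightly lower in Hps1-/- cells, and evenly so. The log2 ratio of PBS-HPS1 to PBS-WT was below 0 for 91 of the 91 members that could be compared, where 70.8% of all 14840 genes compared were below 0. Its median was -0.46, against -0.19 over all genes. Only Rpl39l, a paralog with 51 reads in PBS-WT and 27 in PBS-HPS1, was at least 2-fold lower, against 3.11% of all genes, and no member was at least 2-fold higher, against 2.16%. Over the 77 genes the ratio had an SD of 0.042 and ran from -0.55 to -0.32. Counting error alone gave a single ratio a 95% half-width of 0.018 at the median gene and at most 0.046, so the range was wider than counting error. Outside the 77 genes, the interval included 0 for the low copies Rpl37rt (-0.30 to 0.13), Rpl32l (-0.80 to 0.41) and Rpl3l (-0.52 to 0.17). Their direction is therefore uncertain.

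Among the members with at least 10 CPM, Rpl30 had the highest ratio, -0.32, with 589 CPM in PBS-WT and 472 in PBS-HPS1. It was followed by the paralogs Rpl22l1 at -0.34 and Rpl7l1 at -0.37. The lowest ratios were those of Rps9 at -0.55, with 1434 and 977 CPM, Rps25 at -0.55, with 509 and 347 CPM, and Rps27a at -0.55, with 489 and 334 CPM. Rps27a is made as a fusion with ubiquitin, and Rps25 is needed by many viral internal ribosome entry sites. With libraries scaled by total counts alone the median of the members was -0.22 and that of all genes 0.05. A scaling factor moves all genes of a comparison by the same amount, so the distance of -0.27 between these medians does not depend on the scaling. Neutrophil markers summed to 1240 CPM in PBS-WT and 349 in PBS-HPS1, with 4 of 4 at least 2-fold lower, and macrophage markers to 11333 and 7552. Their part in the ratio was not tested.

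The second comparison is of bleomycin with PBS in WT mice. Ribosomal protein genes were modestly higher after bleomycin, none of them by 2-fold. The ratio of BLEO-WT to PBS-WT was above 0 for 87 of the 91 members, where 56.6% of all genes were above 0, with a median of 0.39 against 0.09 over all genes. Of all genes 13.5% were at least 2-fold apart in either direction, and of the members 0. The 46 large-subunit genes had a median of 0.40 and the 31 small-subunit genes of 0.39.

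The highest ratio among members with at least 10 CPM belonged to Rps27l, a paralog of Rps27 and a known p53 target, with 46.2 CPM in PBS-WT and 75.9 in BLEO-WT and a ratio of 0.72 (95% exact interval 0.66 to 0.78). Next came Rps2 at 0.62, with 1179 and 1816 CPM, and Rpl35 at 0.57, with 377 and 560 CPM. At the other end Rps4l stood at -0.80, Rpl7l1 at 0.14 and Rpl5 at 0.17. The 4 members with a ratio below 0 were Rpl39l, Rpl3l, Rps3a3 and Rps4l, none of them in the set of 77, and the first 3 of these had at most 136 reads in either library. Under scaling by total counts the median of the members was 0.12 and that of all genes -0.17. Fibroblast markers summed to 164 CPM in PBS-WT and 538 in BLEO-WT, macrophage markers to 11333 and 16304, epithelial markers to 1044 and 475, and NK markers to 44.1 and 20.2, and their part in the ratio was not tested.

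**Figure D3:**
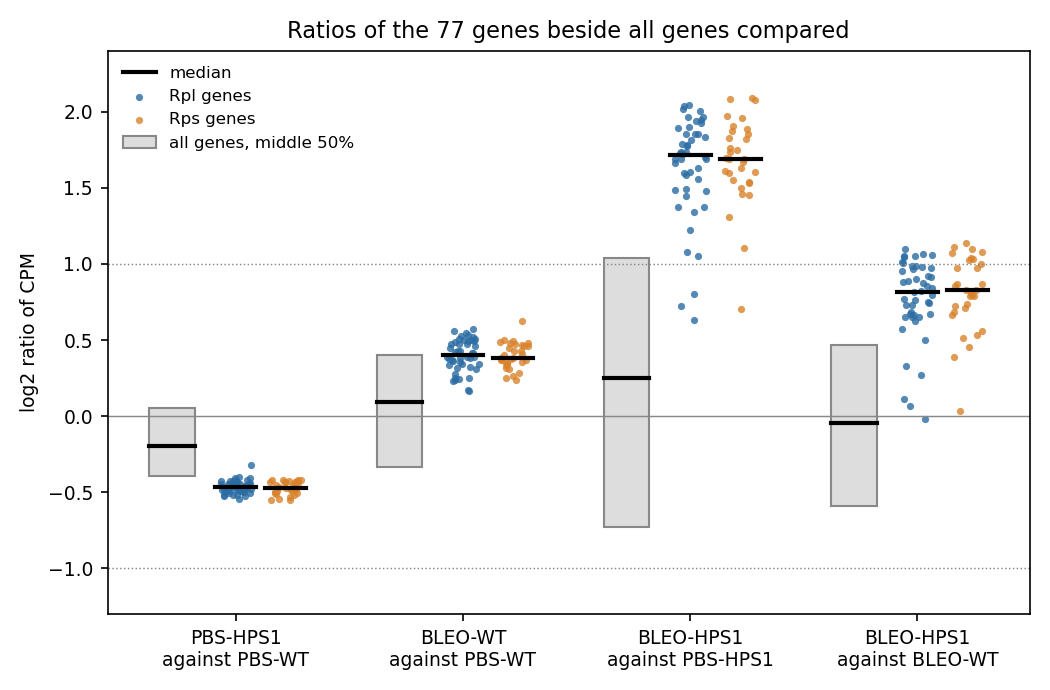
Log2 ratios of CPM in the 4 comparisons, with 1 point per gene of the set of 77 (Rpl blue, Rps orange), black bars at the medians, and grey boxes for the middle 50% of all 14840 genes compared. The points sit in a narrow band near -0.47 in the PBS comparison, near 0.40 in WT, and spread from 0.63 to 2.09 in BLEO-HPS1 against PBS-HPS1, where the gene box is also wide.

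The third comparison is of bleomycin with PBS in Hps1-/- mice. Here the ribosomal protein genes stood far above the median of all genes. Over PBS-HPS1 the median log2 ratio in BLEO-HPS1 was 1.69 over the 91 members and 0.25 over all genes. It was above 0 for 90 members, all but Rpl3l at -0.0090, where 57.1% of all genes were above 0. At least 2-fold higher were 81 members, where 26.2% of all genes were, and no member was at least 2-fold lower, where 19.6% of all genes were. The highest were Rps14 at 2.09, with 937 CPM in PBS-HPS1 and 3996 in BLEO-HPS1, Rpsa at 2.09, with 1078 and 4574 CPM, and Rps2 at 2.08, with 879 and 3712 CPM. Rps14 is known as the gene whose loss blocks red cell formation in the 5q- syndrome, and Rps2 lies at the entry of the messenger RNA channel.

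The 10 members under 2-fold were 4 genes of the set of 77 and 6 paralogs. The 4 genes were Rpl5 at 0.63, Rps3a1 at 0.70, Rpl23 at 0.72 and Rpl4 at 0.80, and counting error gave no ratio of the 77 a half-width above 0.041. Rps3a1, of the small subunit near the messenger RNA exit, was counted at 991 CPM in PBS-HPS1 and 1614 in BLEO-HPS1. Rpl23, which like Rpl5 and Rpl11 can bind Mdm2, was counted at 578 and 953 CPM. The 6 paralogs were Rpl22l1, Rpl36al, Rpl3l, Rpl7l1, Rps3a2 and Rps3a3.

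This comparison moved widely for all genes, with 45.9% at least 2-fold apart, and the TMM factors of its libraries differ most. By total counts alone the median of the members was 1.05 and that of all genes -0.39, and 51 members in place of 81 were at least 2-fold apart. The share of all genes at least 2-fold apart under that scaling is not given here. Fibroblast markers also differed most between these libraries, at 298 and 2672 summed CPM, and macrophage markers stood at 7552 and 15125, B cell markers at 78.1 and 265, T cell markers at 352 and 752 and epithelial markers at 727 and 273. The ILC2 markers summed to 676 and 784 CPM. Of the 10 compared ILC2 markers 5 were at least 2-fold lower and 2 higher, with a median log2 ratio of -1.01. After the corrections for GC content and length described below that median was -0.05 on transcripts and -0.50 on coding sequence. Their part in the ratio was not tested.

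The fourth comparison sets the genotypes side by side after bleomycin. Ribosomal protein genes were higher in Hps1-/- cells, by somewhat less than 2-fold for most. The median log2 ratio for BLEO-HPS1 over BLEO-WT was 0.81 over the members and -0.04 over all genes, and it was above 0 for 90 of 91 members, where 47.8% of all genes were above 0. At least 2-fold higher were 18 members, where 6.72% of all genes were, and no member was at least 2-fold lower, where 10.3% of all genes were. Of these 18, 16 belong to the set of 77, 8 from each subunit, and the others were Rpl39l and Rps4l. Many members lay close to the 2-fold line, and the number past it went from 18 to 29 with DESeq2's size factors, to 9 with TMM factors computed without the members and to 3 by total counts. The 6.72% of all genes holds for the main TMM factors alone, and the shares under the other scalings are not given here. By total counts the median of the members was 0.68 and that of all genes -0.18. Fibroblast markers summed to 538 CPM in BLEO-WT and to 2672 in BLEO-HPS1, B cell markers to 79.5 and 265, T cell markers to 423 and 752, and macrophage markers to 16304 and 15125. Their part in this ratio was not tested, nor was that of the larger number of cells behind BLEO-HPS1, 128647 against 84166.

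The members at the top were Rps4l at 1.38, Rpsa at 1.14 (95% exact interval 1.13 to 1.15) and Rps14 at 1.11 (1.10 to 1.12). Rpsa had 2077 CPM in BLEO-WT and 4574 in BLEO-HPS1, and Rps14 had 1851 and 3996. The lowest were Rpl5 at -0.02, with 1164 and 1150 CPM, Rps3a1 at 0.03, with 1580 and 1614 CPM, and Rpl23 at 0.07, with 908 and 953 CPM. Rpl5, at chr5:107900502-107909005 on the plus strand, and Rps3a1, at chr3:86137940-86142702 on the minus strand, were thus almost level between the genotypes, beside a median of 0.82 over the 77 genes. After the corrections for GC content and length described below, Rpl5 had 0.45 on transcripts and 0.33 on coding sequence, and Rps3a1 -0.04 and 0.27. Without a correction only 4 of the 77 genes lay below 0.2, the fourth being Rpl4 at 0.11, and 69 lay at 0.5 or above.

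The comparisons without a library in common can be set against each other over the 77 genes. Between the genotype ratio after PBS and the genotype ratio after bleomycin Spearman's rho was 0.03. Between the bleomycin ratio in WT and the bleomycin ratio in Hps1-/- mice rho was 0.63. In both bleomycin ratios Rpl5 stood low, at 0.17 in WT and 0.63 in Hps1-/-, Rpl23 at 0.23 and 0.72, Rpl4 at 0.25 and 0.80, and Rps3a1 at 0.25 and 0.70. Genes are not independent replicates and share base composition and depth, so these coefficients are a description.

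The gap between the genotypes in the bleomycin ratio was 1.26 on the log2 scale at the median of the members, against 0.15 over all genes. It was above 0 for 91 of 91 members, where it was for 8239 of all 14840 genes compared. For 74 members it was at least 1, where it was for 2423 of all genes. In the set of 77 it ran from 0.45 for Rps3a1 to 1.63 for Rpsa. Since both ratios have a single library on each side, the gap was not tested.

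Base composition went along with the spread among members. The GC content of the coding sequence of the 77 genes ran from 44.9% for Rpl30 to 61.6% for Rpl36. Over these genes the ratio of BLEO-HPS1 to BLEO-WT had a Spearman's rho of 0.64 with GC content, that of BLEO-HPS1 to PBS-HPS1 of 0.68, that of BLEO-WT to PBS-WT of 0.45 and that of PBS-HPS1 to PBS-WT of 0.02. Over the 13283 other genes the coefficients were 0.51, 0.51, 0.39 and -0.03. Coding length had a rho of -0.09 with the ratio of BLEO-HPS1 to BLEO-WT within the set, against -0.26 over the other genes, and of 0.32 with the ratio of PBS-HPS1 to PBS-WT, against 0.32.

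The 26 members poorest in GC, 44.9% to 50.7%, had a median ratio of BLEO-HPS1 to BLEO-WT of 0.66 and a range from -0.02 to 1.01. The middle 26, 50.8% to 54.6%, had a median of 0.86, and the 25 richest, 54.7% to 61.6%, a median of 0.98 and a range from 0.62 to 1.14. Genes of like GC could still differ widely. Rpl39, at 45.1% GC, had a ratio of 1.01, while Rpl5, at 46.0%, had -0.02.

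**Figure D4:**
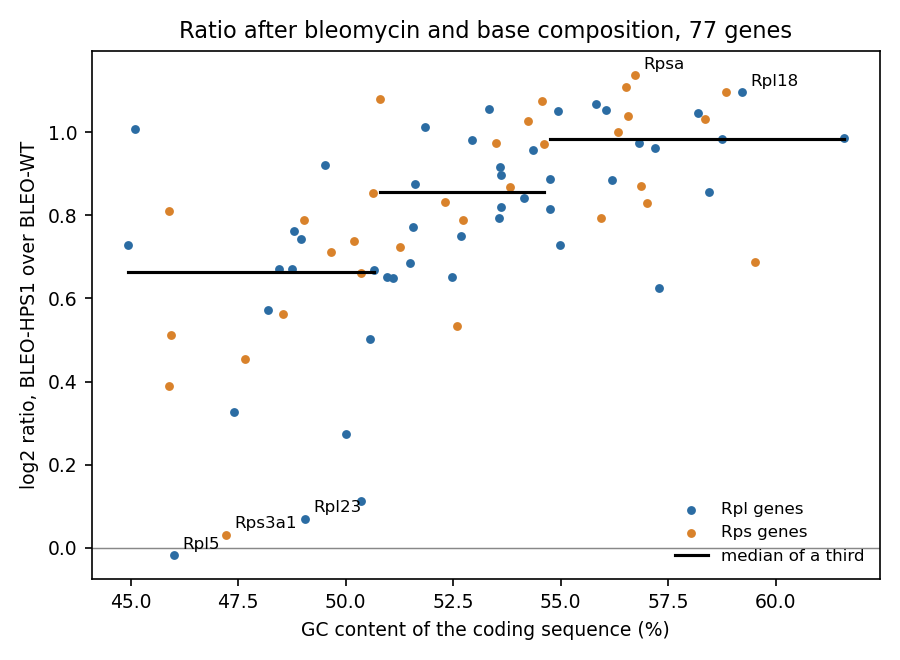
Log2 ratio, BLEO-HPS1 over BLEO-WT, against the GC content of the coding sequence for the 77 genes (Rpl blue, Rps orange), with black bars at the medians of 3 groups by GC content, 0.66, 0.86 and 0.98. Rpl5, Rps3a1 and Rpl23 lie near 0 in the GC-poor part, and Rpsa and Rpl18 lie at the top in the GC-rich part.

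When each ratio was corrected by a smooth fit of all genes on transcript GC content and length, the members kept a ratio above that of all genes in the bleomycin comparisons, but a smaller one. A second correction took coding sequence in place of transcripts and left the members out of the fit. The median of the members for BLEO-HPS1 against BLEO-WT went from 0.81 to 0.34 with the first or 0.52 with the second, beside -0.06 and -0.04 over all genes. For BLEO-HPS1 against PBS-HPS1 it went from 1.69 to 0.98 or 1.21, beside 0.31 and 0.34. For BLEO-WT against PBS-WT it went from 0.39 to 0.31 or 0.34, beside 0.14 and 0.15. In the PBS comparison it went from -0.46 to -0.35 or -0.32, beside -0.23 and -0.22 over all genes, so that its distance from all genes was -0.27 without a correction and -0.12 or -0.094 with one. Above the median of all genes for BLEO-HPS1 against BLEO-WT were 77 of the 77 genes without a correction and 71 with the first. With the second it was 76, and the remaining gene, Rpl41, had no value there. Members at least 2-fold apart in that comparison numbered 18 of 91 without a correction. They numbered 4 of 91 under the first correction and 1 of the 84 with a value under the second. The share of all genes at least 2-fold apart after a correction is not given here, so the corrected counts have no background beside them.

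The stalk proteins recruit the translation factors. Rplp0 had a ratio of BLEO-HPS1 to BLEO-WT of 1.05, Rplp1 of 1.05, Rplp2 of 0.98 and Rpl12, which sits at the base of the stalk, of 0.84, beside a median of 0.82 over the 77 genes. After the correction on coding sequence these ratios were 0.69, 0.52, 0.48 and 0.48, beside a median of 0.53. Rplp1 was counted at 876 CPM in PBS-HPS1, then at 1572 in BLEO-WT and 3247 in BLEO-HPS1. Coding GC of these 4 genes was high too, from 54.1% to 58.2%.

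The pair that carries the 5S ribosomal RNA into the large subunit did not move as one. Rpl11 was counted at 709 CPM in PBS-WT and 509 in PBS-HPS1, then 973 in BLEO-WT and 1689 in BLEO-HPS1, with a ratio of BLEO-HPS1 to BLEO-WT of 0.80 (median of the set 0.82). Its partner Rpl5 had -0.02 in that comparison, and -0.48 beside -0.48 for Rpl11 in the PBS comparison. Their coding GC was 53.6% and 46.0%, and after the correction on transcripts their ratios were 0.36 and 0.45.

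Genes that encode a ribosomal protein fused to ubiquitin or to a ubiquitin-like protein include Rps27a and Fau. Rps27a, at 45.9% GC, had a ratio of BLEO-HPS1 to BLEO-WT of 0.51, while Fau, the fusion with Rps30, at 58.9%, had 0.95. Rack1, a scaffold on the head of the small subunit that the rule misses as it does Fau, had 1.08, with 1645 CPM in BLEO-WT and 3473 in BLEO-HPS1. Over the 4 comparisons in the order given above Fau had ratios of -0.54, 0.32, 1.81 and 0.95, and Rack1 of -0.46, 0.46, 2.00 and 1.08.

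Proteins that line the exit tunnel, 8 in the list used here, had a median ratio of BLEO-HPS1 to BLEO-WT of 0.68, with 2 of them at least 2-fold higher, where 6.72% of all genes were, and a range from 0.11 for Rpl4 to 1.05 for Rpl19. The 10 genes of the list for Diamond-Blackfan anaemia, an inherited failure of red cell formation, had a median of 0.78 and ran from -0.02 for Rpl5 to 1.04 for Rps10, with 1 at least 2-fold higher, again beside 6.72%. Rps19, the first of these genes to be tied to that disease, was counted at 650 CPM in PBS-WT and 459 in PBS-HPS1, then 899 in BLEO-WT and 1799 in BLEO-HPS1, on the 2-fold line. Rps6, the substrate of the S6 kinases, had a ratio of 0.74 with 1042 and 1738 CPM, and Rpl10, the last protein to join the large subunit, had 0.65 with 1169 and 1833 CPM.

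Paralogs varied more than the main genes. Rpl36al, an intronless copy that encodes nearly the same protein as Rpl36a, had 72.4% as many reads as Rpl36a in PBS-WT and 72.2% in PBS-HPS1, then 66.0% in BLEO-WT and 49.6% in BLEO-HPS1. Rpl22l1, a relative of Rpl22 with its own effects on T cell development, had 25.4%, 27.6%, 24.3% and 18.9% as many reads as Rpl22. Both were thus lower beside their main gene in BLEO-HPS1 than in the other libraries. Rpl7l1, which acts in making the large subunit, held between 10.3% and 11.9% of the reads of Rpl7 in all 4 libraries.

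Rps27l went its own way in WT cells, with 7.05% of the reads of Rps27 in PBS-WT and 6.94% in PBS-HPS1, then 9.63% in BLEO-WT and 7.39% in BLEO-HPS1. Rps4l, a transcribed processed pseudogene on chromosome 6, had 1.60%, 1.64%, 0.718% and 1.37% of the reads of Rps4x. It was counted with 1484, 1367, 856 and 1798 reads, so that BLEO-WT was the low library. Reads of such copies can be split with those of the main gene by the counting, and these values are uncertain for that reason. The testis and muscle paralogs were barely counted, with 1 read for Rpl10l in each library, 71 to 153 reads for Rpl3l and 27 to 89 reads for Rpl39l. Rps12l1 had 0 reads in all 4 libraries, which allows up to 3 reads a library.

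The other copies were low as well. Rps27rt was counted at 6.38 CPM in PBS-WT and 16.1 in BLEO-HPS1, and kept between 0.966% and 1.03% of the reads of Rps27. Rps3a2 had 4.90 and 7.11 CPM and Rpl37rt 4.19 and 8.53 CPM in the same libraries, and Rps3a3 never passed 97 reads. Rps19bp1 was counted at 13.5, 9.87, 18.8 and 27.4 CPM, with a ratio of BLEO-HPS1 to BLEO-WT of 0.54.

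The 9 genes of the elongation list had a median ratio of BLEO-HPS1 to BLEO-WT of 0.73, with 2 at least 2-fold higher beside 6.72% of all genes, Eef1g at 1.16 and Eef1akmt1, which methylates eEF1A, at 1.02. Eef1d had 0.95. Eef2, the translocase, had 0.89, with 5964 CPM in BLEO-WT and 11059 in BLEO-HPS1, while Eef1a1, which brings the aminoacyl-tRNA, had 0.11, with 9724 and 10463 CPM. With the corrections the median of the list was 0.51 on transcripts and 0.63 on coding sequence, beside -0.06 and -0.04 over all genes.

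The 30 compared genes of the initiation list had a median of -0.06, with 0 at least 2-fold higher and 1 lower, Eif5 at -1.04, beside 6.72% and 10.3% of all genes. Within that list Eif3k stood at 0.96 and Eif3i at 0.96, so its members spread over a range of -1.04 to 0.96. The 60 genes of ribosome biogenesis, which process the ribosomal RNA and assemble the particle, had a median of -0.03, with 0 at least 2-fold higher and 1 lower, where 6.72% and 10.3% of all genes were. Gnl3 (nucleostemin) stood at -1.09, Wdr43 at -0.93, Ncl (nucleolin) at -0.72, Fbl (fibrillarin) at 0.60 and Polr1c, a subunit of RNA polymerases I and III, at 0.91. After the correction on transcripts Gnl3 had -0.73, Ncl 0.06 and Fbl 0.01, and of the initiation genes Eif5 had -0.34, Eif3k 0.45 and Eif3i 0.54. The list medians were then 0.08 for initiation and 0.06 for biogenesis, beside -0.06 over all genes. On coding sequence they were 0.20 and 0.18, beside -0.04.

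Regulators of ribosomal protein synthesis lay on both sides of 0 in the same comparison. The 15 genes of the mTOR and MYC list had a median of -0.24, with 6 above 0 and 9 below, and with 0 at least 2-fold higher and 2 lower beside 6.72% and 10.3% of all genes, Larp4 at -1.26 and Rps6kb1, an S6 kinase, at -1.04. Tsc1, a brake on mTOR, had -0.63, Larp1 -0.58, Myc -0.30 and Mtor -0.29. On the other side, and named after their values were seen, were Eif4ebp1 at 0.51, Mlst8 at 0.36, Rptor at 0.17 and Tsc2 at 0.15. After the correction on transcripts Larp4 had -0.52, Larp1 -0.53, Myc -0.69, Mtor -0.20, Eif4ebp1 0.60 and Mlst8 0.11. The median of the list was then -0.20, and -0.40 after the correction on coding sequence. The transcripts of these regulators say nothing of the activity of their proteins.

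**Figure D5:**
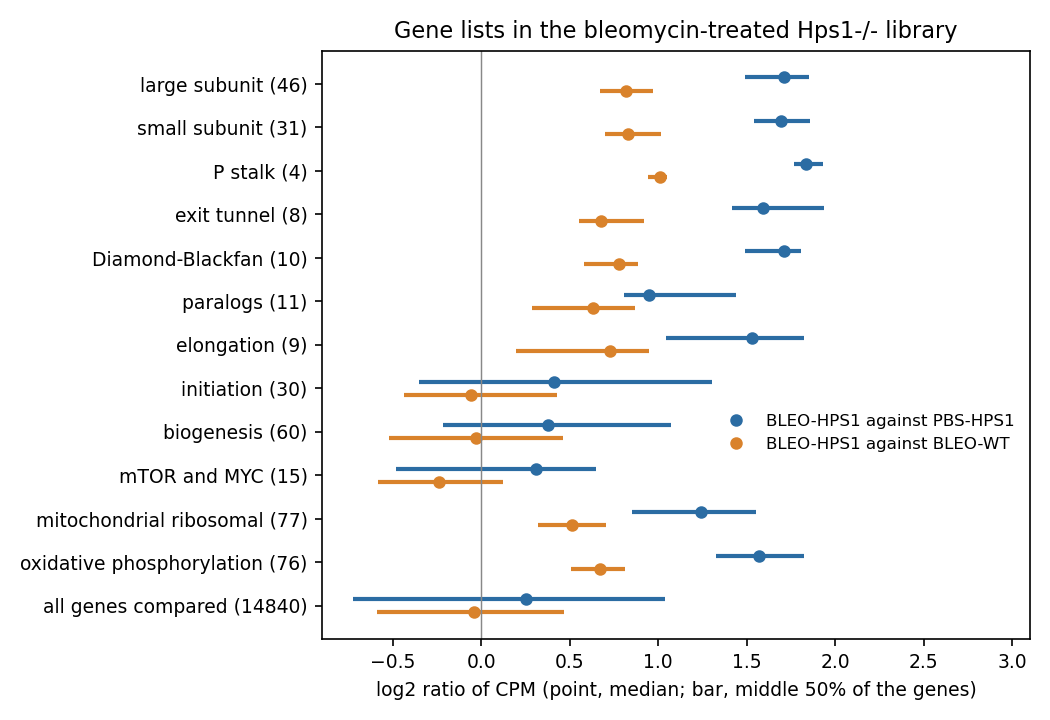
Median log2 ratio (points) and middle 50% of the genes (bars) of each list, with the number of genes compared in brackets, for BLEO-HPS1 against PBS-HPS1 (blue) and BLEO-HPS1 against BLEO-WT (orange). Both subunits, the stalk and the respiratory genes lie to the right of all genes in both comparisons, while initiation, biogenesis and regulator genes have medians of -0.06, -0.03 and -0.24 in the second. Ratios in the figure are without the corrections for GC content and length. After the correction on transcripts the last 3 medians were 0.08, 0.06 and -0.20, beside -0.06 over all genes and 0.34 over the members.

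The genes of the mitochondrial ribosomal proteins and of the respiratory chain were set beside the members as larger lists. For BLEO-HPS1 against PBS-HPS1 the 77 compared genes of the mitochondrial ribosome had a median of 1.24 with 51 at least 2-fold higher. The 76 respiratory genes had a median of 1.57 with 64 higher, beside 1.69 and 81 for the 91 members and 26.2% of all genes. For BLEO-HPS1 against BLEO-WT the medians of the mitochondrial ribosome and respiratory lists were 0.51 and 0.67, beside 0.81 for the members. At least 2-fold higher there were 2 (2.60%) and 3 (3.95%) of their genes, below the 6.72% of all genes, and 18 members (19.8%). In the PBS comparison the medians were -0.42 and -0.47, beside -0.46. After the correction on transcript GC content and length the medians for BLEO-HPS1 against BLEO-WT were 0.23 and 0.18, beside 0.34 for the members. Whether the cytosolic ribosomal protein genes moved apart from these genes was not tested.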

How the data were processed

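RNA of sorted ILC2s was sequenced in 4 libraries, 1 per group, and grouped by the labels. The authors deposited raw counts: whole reads for each Ensembl identifier, not normalized. The libraries came from a SMARTER mRNA kit. The aligner, counter, build and the treatment of multi-mapped reads are not given in the sources used here.

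From the counts, CPM was computed with TMM factors (edgeR 4.0.16, R 4.3.3), and log2 ratios with a prior count of 2, for the 14840 genes with at least 1 CPM in at least 1 library. Without replicates no test was run. A gene was called at least 2-fold apart, and single ratios carry exact 95% intervals (Clopper-Pearson). Positions, types, lengths and GC content came from GENCODE M21 (GRCm38), in which 49056 identifiers were found, and start windows from RefSeq, those on chromosome 18 not used here. A loess fit (span 0.3) on GC content and log2 length gave corrected ratios. Tables were made with Python 3.11.15 and pandas 2.3.3.

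The members and lists were chosen with earlier results of these data known. Named genes are the 5 highest and 5 lowest of the 77 by mean CPM, the 3 highest and 3 lowest ratios at 10 CPM or more, the genes of the short lists (1 is not reported here), at most 3 of each other list, and some textbook genes. Rpl4, Rpl19, Rps10, Rpl39, Rpl36, Rpl41, Rpl32l and the genes of the printed start regions beyond these were named after their values were seen. The steps were checked on simulated counts. Alternatives were total counts, DESeq2 size factors (version 1.42.0), TMM without the members, a prior count of 0.5, a filter of at least 10 counts per library or none, a 1.5-fold threshold, 1 gene per protein, and GC and length corrections.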

Additional observations from a re-analysis of the deposited data

Results flagged for a closer look

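Of the 91 members compared, 3 went one way after bleomycin in WT and the opposite way in Hps1-/- mice, all of them low paralogs or copies. For Rps4l the log2 bleomycin/PBS ratio was -0.80 in WT (95% exact interval -0.93 to -0.68) and 1.04 in Hps1-/- (0.94 to 1.15). For Rpl39l it was -0.57 in WT (-1.26 to 0.061) and 2.27 in Hps1-/- (1.73 to 3.05). For Rps3a3 it was -0.11 in WT (-0.55 to 0.31) and 0.56 in Hps1-/- (0.089 to 1.05). With 1 library on each side of a ratio, these differences between the genotypes were not tested, and the intervals cover counting error only.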

How the results depend on the processing

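No alternative turned the direction of a median of the members. Medians are given for PBS-HPS1 against PBS-WT, BLEO-WT against PBS-WT, BLEO-HPS1 against PBS-HPS1, BLEO-HPS1 against BLEO-WT and the gap between the genotypes, in that order, and counts of members at least 2-fold apart for the first 4. As reported the medians were -0.46, 0.39, 1.69, 0.81 and 1.26 and the counts 1, 0, 81 and 18. By total counts the medians were -0.22, 0.12, 1.05, 0.68 and 0.88 and the counts 0, 2, 51 and 3. With the GC and length correction they were -0.35, 0.31, 0.98, 0.34 and 0.70, with counts of 3, 40 and 4 in the WT, Hps1-/- and after-bleomycin comparisons. With that correction fitted without the members, added after the data were seen, they were -0.36, 0.32, 1.0, 0.36 and 0.73, with 4, 46 and 4. On coding sequence, also fitted without the members and added later, the medians were -0.32, 0.34, 1.21, 0.52 and 0.86, over the 84 members with a value. The counts were then 0 and 1 in the PBS and WT comparisons and 1 in BLEO-HPS1 against BLEO-WT. DESeq2's size factors gave -0.43, 0.87 and 1.29 for the first and the last 2 medians and 29 for the last count. TMM factors without the members gave 1.61, 0.75 and 1.19 for the last 3 medians and 9 for the last count. A 1.5-fold threshold gave counts of 2 and 5 in the PBS and WT comparisons and 72 in BLEO-HPS1 against BLEO-WT, and 1 gene per protein gave 0 in the PBS comparison. Shares of all genes past the threshold are not given for these alternatives, so their counts stand without a background. The share of reads on the members was 6.20%, 5.34%, 6.82% and 10.98% with the -ps genes added, and 6.44%, 5.50%, 7.17% and 11.5% with the 5 most counted genes out of the total, first for WT and Hps1-/- after PBS and then for both after bleomycin. A prior count of 0.5, no filter and at least 10 counts in every library moved no median or count beyond its limits. No paired analysis was possible because each group has a single library, and no library could be left out. Depth limits the low paralogs and copies, not only those with under 200 reads. The interval of Rpl37rt in the PBS comparison, -0.30 to 0.13, includes 0. So does that of Rps3a2 in BLEO-HPS1 against BLEO-WT, -0.088 to 0.28. The spread between mice is unknown.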
